A study of Homo sapiens with 10 samples.

Results

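The 6 genes described here encode the main nuclear topoisomerases of human cells and the enzymes that repair their trapped forms: TOP2A, TOP2B, TOP1, TOP3A, TDP1 and TDP2. They were chosen by name, with earlier results of these data known, and matched by symbol among the 32738 genes of the expression table, where all 6 were found. The cells were HCT-116, an established human colorectal carcinoma line labelled WT in genotype. The treated cells received 200 nM doxorubicin (DOX) for 24 hours and were sequenced after 6 days of recovery without the drug. The untreated cells received none. Droplet-based scRNA-Seq of transcript 3′ ends gave 2 libraries per condition, 4 in all, and the labels do not say whether they came from separate cultures, so that p-values measure only the spread between these libraries, which may be technical. A further 6 bulk mRNA-Seq samples of the series were not analysed here.

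Topoisomerases relieve the twisting and tangling of DNA by cutting it, passing strands through the cut and sealing it again. During this cycle the enzyme is held to the DNA end by a covalent bond. Doxorubicin is an anthracycline that intercalates in DNA and traps the type II enzymes, TOP2A and TOP2B, in the cut state, which leaves a DNA break capped by protein. TOP2A is made mainly in dividing cells and is needed to separate chromosomes in mitosis, whereas TOP2B is also made in cells that do not divide. TOP1 nicks a single strand and works ahead of transcription and replication forks, and TOP3A resolves recombination intermediates together with the BLM helicase. TDP2 removes TOP2 remnants from DNA ends and TDP1 those of TOP1.

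Values are UMIs, that is, distinct captured mRNA molecules, and levels are CPM, a gene's UMIs scaled to 1000000 UMIs per library. The analysis used deep barcodes, those with at least 20000 UMIs and a mitochondrial share of less than 8%. There were 3572 and 2137 of them in untreated libraries 1 and 2 and 1307 and 1080 in DOX libraries 1 and 2, or 8096 in all. They made up 76.0% and 84.5% of the untreated barcodes but 16.3% and 13.5% of the 8000 barcodes in each DOX library, with a median of between 72676 and 84829.5 UMIs. At most 2 deep barcodes occurred in any pair of libraries. All 6 colon epithelial markers were detected in every library, at a summed level of 3553 to 6146 CPM, against at most 4.63 CPM for the fibroblast, 1.45 CPM for the endothelial and 0.992 CPM for the immune markers, with COL1A2 at 0 throughout.

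TOP2A lies on chromosome 17 at 38544777-38574148 of hg19, on the minus strand. Its promoter is shown here because its level followed the cell cycle genes described further on. CCAAT boxes are bound by the factor NF-Y, and the letters TTTGAA form the cell cycle gene homology region that the LIN54 subunit of the DREAM and MMB complexes contacts. In the RefSeq promoter window (GRCh38.p14, 300 bases that end shortly after the start) TOP2A held 4 copies of CCAAT, all on the reverse strand and so written as ATTGG, and 2 copies of TTTGAA, of which the copy nearer the start is on the reverse strand and reads TTCAAA. The sites follow, 5′ to 3′ on the strand of the gene, with the motif in capitals.
CCAAT box at -244, chr17:40418126-40418146: cttctcATTGGccagattccc
TTTGAA at -194, chr17:40418075-40418100: agtggtgcctTTTGAAgcctctctag
CCAAT box at -160, chr17:40418042-40418066: ccctaacctgATTGGtttattcaaa
TTCAAA at -151, chr17:40418032-40418057: gattggtttaTTCAAAcaaaccccgg
CCAAT box at -93, chr17:40417975-40417999: gcaagctacgATTGGttcttctgga
CCAAT box at -53, chr17:40417935-40417959: cgagtcagggATTGGctggtctgct
The stretches printed for the sites at -160 and -151 overlap, but the motifs themselves do not. Of 35116 RefSeq promoter windows of the same length, 34.6% held at least 1 CCAAT on either strand, 0.991% held 4 or more, and 15.2% held TTTGAA. TOP2B had 2 windows, of which the upstream one held 2 copies of CCAAT and 1 of TTTGAA. TDP1 held 1 copy of TTTGAA, at -30, and TOP1, TOP3A and TDP2 held neither motif in their windows. The E2F-type motif letters TTTGGCGC, TTTCCCGC and TTTCGCGC, and TTCGAA, were found in none of the windows of these genes.

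The first question was how much of each mRNA was present in the cells 6 days after the drug. TOP2A was clearly lower in the DOX libraries. Its level was 178 and 208 CPM in the untreated libraries and 116 and 117 CPM in the DOX libraries, a mean of 193 ± 21.3 (SD, n = 2) against 117 ± 0.219 (SD, n = 2). Both DOX libraries lay below both untreated libraries, and the group means differed by 39.7%. Fitted across all genes with edgeR's quasi-likelihood test, the log2 fold change was -0.89 with an SE of 0.069 (Benjamini-Hochberg adjusted p = 2.03e-05).

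The second type II enzyme, TOP2B (chromosome 3, 25639469-25706400, minus strand), hardly moved. Its level was 41.4 and 45.3 CPM in untreated and 43.7 and 43.9 CPM in DOX libraries, so that both DOX values lay between the untreated ones. The fit gave a log2 fold change of -0.15 (SE 0.055, edgeR adjusted p = 0.0428) after TMM scaling, which moved the DOX libraries by 0.17 on the log2 scale relative to library totals, and 0.014 (adjusted p = 0.889) with library totals alone. The call was also lost without DOX library 1 (adjusted p = 0.186) and without DOX library 2 (0.243), so no direction is given for TOP2B.

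TOP1 (chromosome 20, 39657462-39753127, plus strand) had the highest level of the 6 genes. It stood at 391 and 404 CPM in untreated and 366 and 360.2 CPM in DOX libraries, 8.73% lower on average and without overlap. Its log2 fold change was -0.30 (SE 0.070, edgeR adjusted p = 0.00587), but -0.13 (adjusted p = 0.122) with library totals. The call was lost without DOX library 1 (adjusted p = 0.0775) or DOX library 2 (0.129), with the value still below 0.

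TOP3A, TDP1 and TDP2 fell. TOP3A (chromosome 17, 18174742-18218321, minus strand) had 26.2 and 30.8 CPM in untreated and 22.2 and 24.1 CPM in DOX libraries. TDP1 (chromosome 14, 90421283-90511108, plus strand) had 21.9 and 23.8 CPM against 18.9 and 19.1 CPM. TDP2 (chromosome 6, 24650207-24667158, minus strand) had 24.5 and 24.1 CPM against 19.8 and 20.5 CPM. For each of these genes both DOX libraries lay below both untreated ones, an ordering that was not counted over all genes. The means were 18.8%, 16.8% and 17.1% lower. The log2 fold changes were -0.46 for TOP3A (SE 0.070, edgeR adjusted p = 0.000571), -0.43 for TDP1 (SE 0.057, adjusted p = 0.000273) and -0.44 for TDP2 (SE 0.065, adjusted p = 0.000502). The fits use TMM scaling and the CPM means do not, so the fitted falls are larger than those of the means. These calls and that of TOP2A held under every one of the 16 alternatives run for them. The smallest falls among these alternatives were -0.30 for TOP3A, -0.27 for TDP1, -0.27 for TDP2 and -0.73 for TOP2A.

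All 6 genes passed the filter on low counts, and all 6 were called lower, where 54.6% of the 21563 genes tested were called, 26.4% lower and 28.2% higher. Of these calls, that of TOP2B turned and that of TOP1 was lost with library totals, as given above, where 54.4% of genes were called, 15.1% lower and 39.3% higher. The median log2 fold change over all genes tested was 0.045. The share of all genes tested whose libraries did not overlap between conditions was not counted. The lack of overlap given above is therefore a description and not a result particular to these genes.

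**Figure D1:**
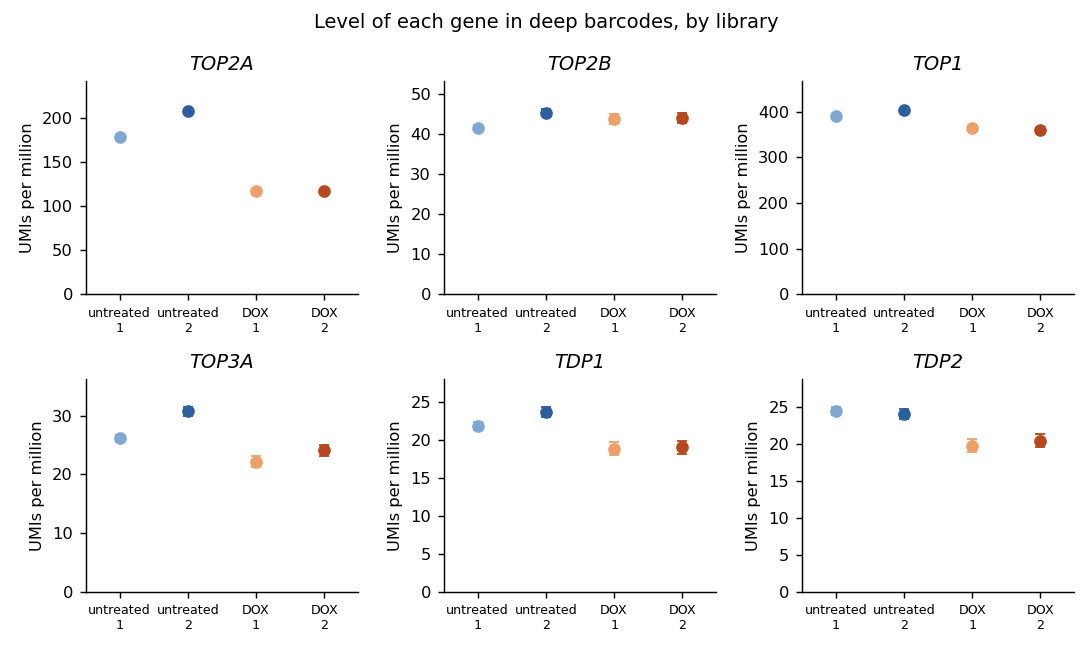
Level of each gene in CPM (vertical axis, from 0, a different scale in each panel) in the 4 libraries (horizontal axis). Points are library values and bars are exact 95% Poisson intervals for counting error only. TOP2A sat at 116 and 117 with DOX against 178 and 208 without, while the DOX values of TOP2B, 43.7 and 43.9, fell between its untreated values.

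The order of the levels was the same in both conditions down to TOP3A. In untreated cells TOP1 was followed by TOP2A, TOP2B and TOP3A, at means of 398, 193, 43.4 and 28.5 CPM, and then by TDP2 (24.3 ± 0.326, SD, n = 2) and TDP1 (22.8 ± 1.34, SD, n = 2), whose SD ranges overlapped. With DOX the means of TOP3A, TDP2 and TDP1 were 23.1, 20.1 and 19.0 CPM, without overlap of their SD ranges. These are levels of captured 3′ ends, which are not scaled by transcript length, and capture may differ between genes.

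Among the type II enzymes, TOP2A had a smaller share with DOX. It made up 81.1% and 82.1% of the TOP2A plus TOP2B UMIs in untreated libraries and 72.7% in each DOX library. The difference of the means was -8.94 percentage points, and the exact permutation test over libraries (two-sided) gave p = 0.333, the smallest that 2 libraries against 2 allow. This share needs no scaling factor between libraries.

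The distribution of TOP2A over cells showed that the loss was unevenly spread. In untreated cells nearly every deep barcode held TOP2A mRNA, and those with none were 2.88% and 1.97% (exact binomial 95% bounds 2.36 and 3.49%, 1.42 and 2.65%). With DOX this share was 26.4% (bounds 24.0 and 28.9%) and 23.1% (20.6 and 25.7%). The median count was 10 and 14 UMIs in untreated libraries and 4 and 5 UMIs in DOX libraries. The 25% quantile was 5 and 7 UMIs untreated and 0 and 1 UMI with DOX.

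The upper end of the distribution differed much less. The 95% quantile was 40 and 51 UMIs in untreated and 35 and 41 UMIs in DOX libraries, and the 99% quantile was 55 and 68 against 51.9 and 65.1 UMIs. The highest single barcodes held 115 and 95 UMIs untreated and 147 and 125 UMIs with DOX. Barcodes with 32 to 63 UMIs made up 10.8% and 20.4% of untreated and 6.50% and 8.70% of DOX barcodes, and those with 64 or more made up 0.504% and 1.59% against 0.306% and 1.11%. The tenth of barcodes with most TOP2A held 29.5% and 28.1% of its UMIs untreated, and 41.9% and 42.1% with DOX.

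In between, the bands at 8 to 15 and 16 to 31 UMIs held more of the untreated barcodes than any other band. The bands grow wider toward high counts, so a larger share does not mean that its single counts were more frequent. In untreated library 1, 10.6% held 2 or 3 UMIs, 21.5% held 4 to 7, 25.1% held 8 to 15 and 24.6% held 16 to 31. In untreated library 2 these bands held 6.60%, 17.1%, 24.5% and 25.1%. In DOX library 1 they held 11.9%, 13.6%, 15.5% and 15.8%, and 9.87% of barcodes held a single UMI against 4.12%. DOX library 2 was alike, with 12.2%, 15.6%, 16.02% and 15.3% in the same bands. No band above 0 stood out in either DOX library, and the class at 0, which holds a single count, was the largest.

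At equal depth the difference in the share without TOP2A was no smaller in percentage points, while that in the median was smaller in UMIs. After each deep barcode was thinned at random to 20000 UMIs, the share without TOP2A was 12.3% and 10.4% untreated and 41.5% and 40.4% with DOX, and the median was 3 UMIs in both untreated and 1 UMI in both DOX libraries. The ratio of variance to mean of the thinned counts, which is about 1 for counting noise alone, was 2.41 and 2.76 untreated and 3.83 and 3.76 with DOX. For TOP2B it was 1.12, 1.07, 1.20 and 1.35. This ratio grows with the mean count, and thinned TOP2B had 2992 UMIs against 12273 for TOP2A in untreated library 1. The ratio therefore does not compare the spread of these genes with each other. The thinned share without a TOP2B UMI was 45.3% and 42.2% untreated and 45.1% and 45.2% with DOX.

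**Figure D2:**
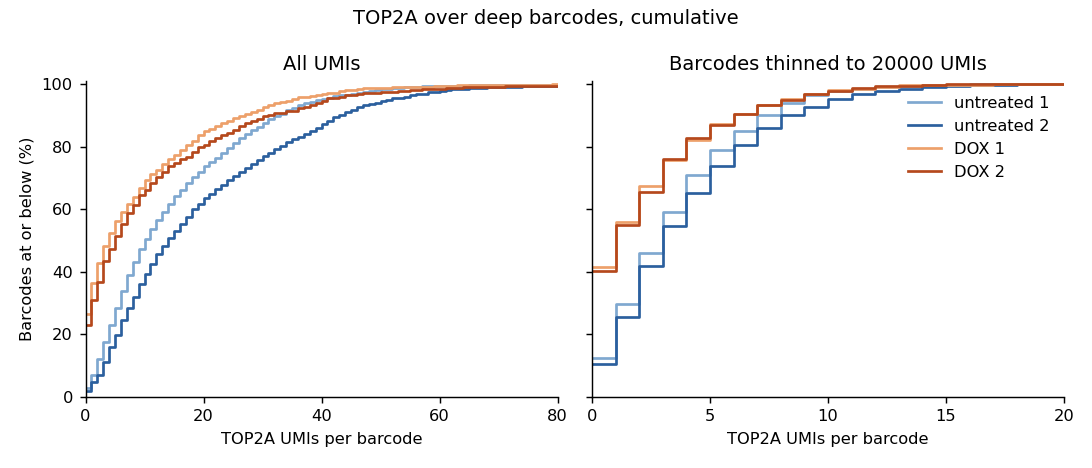
Cumulative share of deep barcodes (vertical axis, percent) with at most the given number of TOP2A UMIs (horizontal axis), for all UMIs on the left (axis ends at 80 UMIs) and for barcodes thinned to 20000 UMIs on the right (axis ends at 20 UMIs), 1 line per library. The DOX lines start at 26.4% and 23.1% on the left against 2.88% and 1.97%, and approach the untreated lines at high counts.

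Free RNA in droplets can give UMIs in cells that do not express a gene, and no other cell type was present to measure it. In DOX barcodes with fewer than 2000 UMIs (median 1416 and 1215), TOP2A stood at 52.2 and 60.3 CPM, and 6.59% and 6.98% of these barcodes held a UMI of it. In untreated barcodes with fewer than 2000 UMIs it stood at 191 and 214 CPM. The paper describes a DOX cluster with few genes detected per cell and proposes that it contains senescent cells. Shallow barcodes may therefore hold cells and do not measure free RNA alone. The part of such RNA in the low TOP2A counts of deep DOX barcodes was not tested.

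A second question was whether TOP2A was lower in DOX cells of the same cell cycle state. Deep barcodes were placed in classes by the summed level of 41 S phase genes and 52 G2/M genes, lists that hold none of the 6 genes, each expressed as a z-score (SDs from the untreated mean). Barcodes below 0 on both were called low, and the rest were called S or G2/M by the higher score. The low class held 10.9% and 9.12% of untreated and 49.4% and 46.6% of DOX barcodes. The S class held 47.1% and 49.7% against 26.7% and 30.4%, and the G2/M class 42.1% and 41.2% against 23.9% and 23.1%. Between 14.9% and 16.4% of barcodes in each library lay within 0.25 of a class limit.

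In the G2/M class no difference in TOP2A passed the test. Its level there was 259 and 303 CPM in untreated and 281 and 292 CPM in DOX libraries, with both DOX values between the untreated ones. The log2 fold change was -0.036 (SE 0.084, edgeR adjusted p = 0.797), where 21.5% of 17901 genes were called, 10.5% lower and 11% higher. TOP2A also took 86.8% and 87.2% of the TOP2 UMIs untreated and 86.5% and 86.8% with DOX in this class. The G2/M list that sets the class holds CDK1, MKI67 and UBE2C, which are nearest to TOP2A over cells, as given below. Choosing barcodes by this list therefore also selects on a level that moves with TOP2A. Like TOP2A values within the class are not an independent result.

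In the S class TOP2A fell modestly, from 114 and 135 CPM to 109 and 103 CPM. The log2 fold change was -0.30 (SE 0.075, edgeR adjusted p = 0.00835), where 27.1% of 18149 genes were called, 13.7% lower and 13.3% higher. Without DOX library 2 it was -0.26 (adjusted p = 0.132).

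The large difference was in the low class. TOP2A stood at 102 and 113 CPM in untreated and 44.4 and 41.6 CPM in DOX libraries, a ratio of means of 0.400. The share of these barcodes with no TOP2A UMI was 13.7% and 14.4% untreated and 50.3% and 46.9% with DOX, or 27.3% and 30.8% against 69.7% and 67.2% after thinning. The log2 fold change was -1.498 (SE 0.081, edgeR adjusted p = 3.29e-06), where 46.2% of 18499 genes were called, 23.8% lower and 22.4% higher. TOP2A made up 71.1% and 72.6% of TOP2 UMIs untreated and 52.6% and 49.8% with DOX. The deep DOX values of 44.4 and 41.6 CPM lay below the 52.2 and 60.3 CPM of the shallow DOX barcodes.

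The low classes were not alike between conditions, however. Their median S and G2/M z-scores were -0.43 and -0.54 in untreated library 1 and -0.53 and -0.73 in untreated library 2, but -4.50 and -3.92 in DOX library 1 and -4.22 and -3.80 in DOX library 2. With a class limit of -2, chosen after the data were seen, the low class kept 62 and 34 untreated and 409 and 309 DOX barcodes. The log2 fold change of TOP2A was then -0.23 (SE 0.26, edgeR adjusted p = 0.586).

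**Figure D3:**
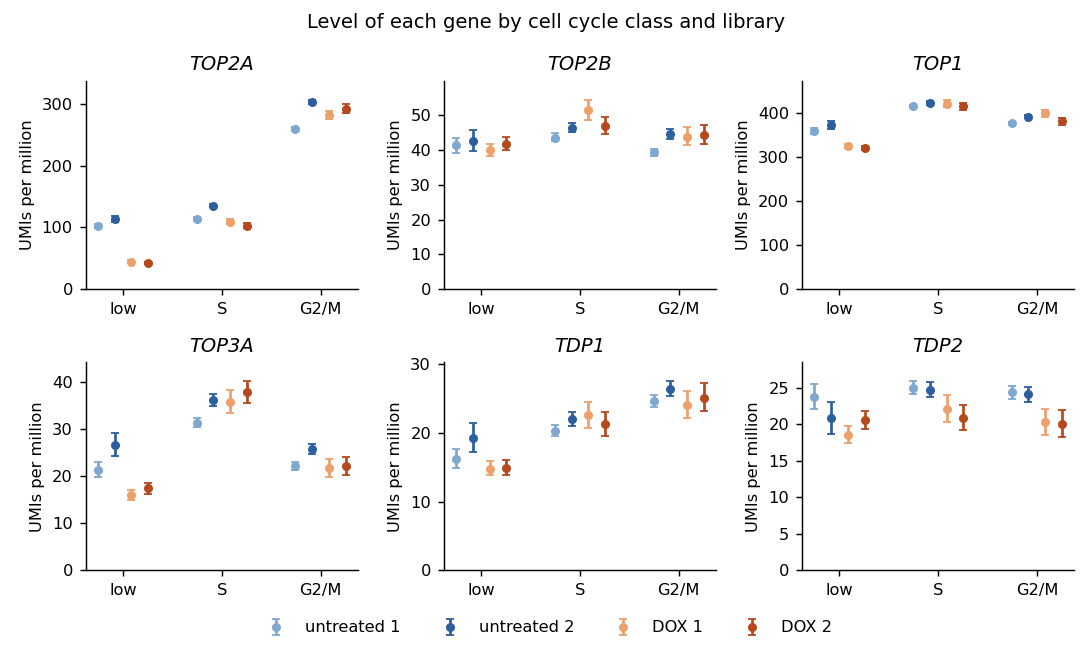
Level of each gene in CPM (vertical axis, from 0, a different scale in each panel) by cell cycle class (horizontal axis) and library (colour), with exact 95% Poisson intervals for counting error only. In the low class TOP2A was at 44.4 and 41.6 with DOX against 102 and 113 without, while in G2/M its DOX values lay between the untreated ones.

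The same picture appeared along the G2/M gene level itself, cut into 5 bins of equal size in untreated cells. TOP2A was higher in each bin than in the bin before in all 4 libraries. In bin 5 it reached 318 and 374 CPM untreated and 355 and 355 CPM with DOX. In bins 2, 3 and 4 the DOX libraries had 144 and 127, 166 and 181, and 221 and 233 CPM, against 114 and 137, 151 and 174, and 210.1 and 242 CPM untreated. Within each of bins 2 to 5 the values of the conditions overlapped. In bin 1 they did not, at 42.4 and 44.5 CPM with DOX against 72.4 and 83.0 CPM, and this bin held 59.8% and 61.1% of DOX barcodes against 19.96% and 20.2% of untreated ones. The median G2/M z-score within bin 1 was -1.03 in both untreated libraries and -3.27 and -2.605 in the DOX libraries. The bins were set by genes that move with TOP2A over cells, so like values within a bin are not an independent result either.

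**Figure D4:**
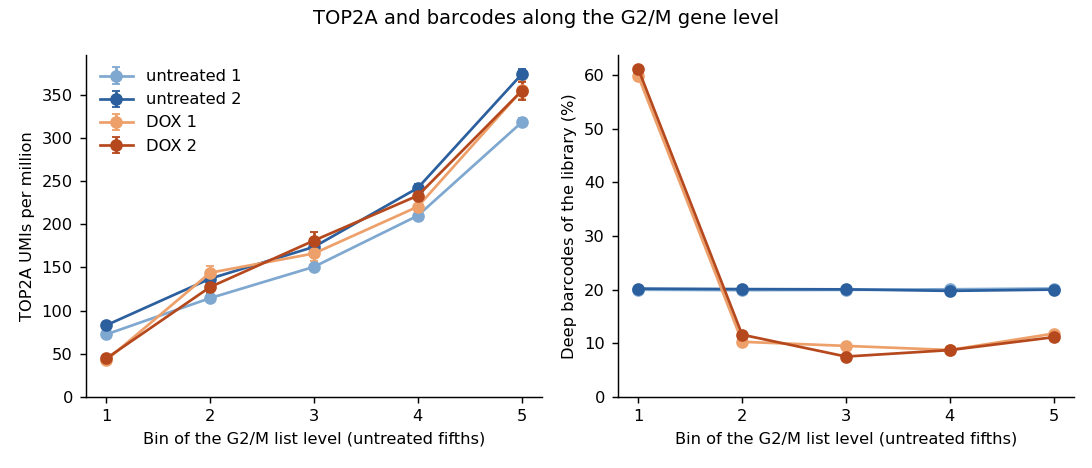
Left, TOP2A level in CPM (vertical axis, from 0) in 5 bins of the G2/M list level set on untreated barcodes (horizontal axis), with exact 95% Poisson intervals for counting error only. Right, percent of each library's deep barcodes in each bin. The lines of the 4 libraries ran together from bin 2 to bin 5, and bin 1 held 59.8% and 61.1% of DOX barcodes.

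The other 5 genes had smaller ranges between classes. TOP3A was highest in the S class, at 31.5 and 36.3 CPM untreated and 35.9 and 37.9 CPM with DOX, and lowest with DOX in the low class, at 16.01 and 17.4 CPM against 21.4 and 26.7 CPM untreated. Its low class log2 fold change was -0.69 (SE 0.098, edgeR adjusted p = 0.000423), but -0.079 (adjusted p = 0.792) with the class limit of -2. In the S and G2/M classes it was 0.058 (adjusted p = 0.597) and -0.19 (0.112), of which the last passed without untreated library 1 (-0.26, adjusted p = 0.0153). TDP1 was highest in G2/M, at 24.7 and 26.4 CPM untreated and 24.1 and 25.1 CPM with DOX, and its low class values were 16.3 and 19.3 CPM against 14.8 and 14.9 CPM (log2 fold change -0.42, SE 0.090, edgeR adjusted p = 0.00399). That TDP1 value was -0.24 (adjusted p = 0.0872) with library totals and turned to 0.038 (0.864) and 0.48 (0.0946) with class limits of -0.5 and -2.

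TOP1 differed little between classes in untreated cells. It had 359 and 372 CPM in the low class, 415 and 422 in S and 376 and 391 in G2/M, and with DOX 325 and 321, 421 and 415, and 399 and 381. The low class log2 fold change was -0.36 (SE 0.087, edgeR adjusted p = 0.00799), which did not pass without DOX library 1 (0.117) or DOX library 2 (0.147), nor with library totals (-0.18, adjusted p = 0.0711). In S and G2/M no difference passed the test (adjusted p = 0.504 and 0.729). TOP2B was nearly level, from 39.4 to 46.5 CPM untreated and from 40.1 to 51.6 CPM with DOX, and its low class value of -0.22 (SE 0.079, adjusted p = 0.0456) passed with 4 of 19 alternatives.

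TDP2 alone of the 6 genes was called lower in every class. It had 23.7 and 20.8 CPM in the untreated low class against 18.6 and 20.5 CPM with DOX, 25.0 and 24.7 against 22.1 and 20.8 in S, and 24.3 and 24.1 against 20.3 and 19.996 in G2/M. The log2 fold changes were -0.38 (SE 0.11, edgeR adjusted p = 0.0177), -0.28 (SE 0.075, adjusted p = 0.0120) and -0.34 (SE 0.083, adjusted p = 0.0107). Of 19 alternatives in each class, the low class call was lost in 5, the S call in 4 and the G2/M call in 1. In the low class these were the fits without untreated library 1 (adjusted p = 0.136) or DOX library 1 (0.0669), with library totals (0.144) and with class limits of -0.5 (0.139) and -2 (0.217). In S they were the fits without DOX library 2 (adjusted p = 0.147), with library totals (0.0542), at a mitochondrial limit of 5% (0.143) and after thinning (0.0589), and in G2/M the fit without DOX library 2 (0.0765). The TDP2 values stayed below 0 under all 19 alternatives in each class. The fits include the few DOX barcodes with many TDP2 UMIs described at the end. Those barcodes held 0.826% and 5.30% of the TDP2 UMIs of DOX libraries 1 and 2, and no fit left them out as a set.

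The difference of the DOX effect between classes was tested directly, as the log2 fold change in G2/M minus that in the low class. It was 1.499 for TOP2A (SE 0.056, edgeR adjusted p = 5.15e-09), 0.53 for TOP3A (SE 0.090, adjusted p = 0.000696), 0.34 for TOP1 (SE 0.042, adjusted p = 5.25e-05), 0.33 for TDP1 (SE 0.094, adjusted p = 0.0198) and 0.26 for TOP2B (SE 0.069, adjusted p = 0.0122). For TDP2 it was 0.075 (SE 0.097, adjusted p = 0.624). Of 18845 genes tested, 30.2% had a difference called, 21.6% above 0 and 8.55% below. The TOP1 call held under all 17 alternatives. That of TOP2A was lost in 1, the class limit of -2 (0.15, edgeR adjusted p = 0.825). For TOP3A the call was lost after thinning (0.26, adjusted p = 0.359) and at the class limit of -0.5 (0.37, 0.0803), and the value turned at -2 (-0.042, 0.941). The TOP2B call was lost in 7 of the 17, with values of 0.081 to 0.36, among them the fit without untreated library 1 (0.15, adjusted p = 0.351). The TDP1 call was lost in 7, among them the fits without untreated library 1 (0.37, adjusted p = 0.0571) or library 2 (0.27, 0.147), and its value turned in another 2, so that it held in 8.

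Over single cells TOP2A moved with mitotic genes. Across deep barcodes within a library, the genes with the highest Pearson r to TOP2A (mean of the 4 libraries, log scale, 13035 genes ranked) were CDK1 (0.74), the kinase that drives mitotic entry, the proliferation marker MKI67 (0.73) and UBE2C (0.73), an enzyme of the anaphase-promoting complex. GTSE1, CENPF, KIF23, CDCA2, KIF14, FAM83D and NUSAP1 followed, down to 0.70. The r with MKI67 was 0.62 and 0.67 untreated and 0.82 and 0.83 with DOX. With CDKN1A, which encodes the cell cycle inhibitor p21, it was -0.13 and -0.15 untreated and -0.36 and -0.38 with DOX. Barcodes of a library share its depth and free RNA, and these values are descriptions.

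The other genes had weaker neighbours by this measure, which counting noise lowers for genes with few UMIs. TOP3A was nearest to genes of DNA repair and replication, FANCA (0.41), MMS22L (0.36) and POLA1 (0.36), the last of which encodes the catalytic subunit of DNA polymerase alpha. TOP1 was nearest to the RNA-binding protein genes HNRNPU (0.38) and NCL (0.35) and to EIF3A (0.35), a translation factor. TOP2B was nearest to the chromatin regulators SMARCC1 (0.33), SETD2 (0.33) and KANSL1 (0.32). For TDP1 and TDP2 no gene reached 0.30, with highest values of 0.22 and 0.13. Between the 6 genes themselves the largest mean r was 0.18, for TOP2A with TDP1.

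Genes that work beside these enzymes were read from the same fit. Of the other topoisomerases, TOP3B had 14.2 and 15.04 CPM untreated and 12.6 and 12.9 with DOX (log2 fold change -0.36, edgeR adjusted p = 0.000859), and the mitochondrial TOP1MT had 38.2 and 39.8 against 36.4 and 33.9 (-0.32, adjusted p = 0.00248). With library totals the call of TOP1MT was lost (-0.15, adjusted p = 0.105). The meiotic SPO11 was too low to be tested. Of 22 genes that process or repair trapped topoisomerase ends, 16 fell, none rose and 6 did not pass, with a median of -0.35. With library totals 10 fell, none rose and the median was -0.18. The 3 with the smallest p were EME1, a structure-specific nuclease subunit (-0.83), XRCC4, which aids end joining (-0.78), and NBN of the MRN complex (-0.50). Among the others, XRCC5 and XRCC6, the Ku subunits, were at -0.56 and -0.54, PARP1 at -0.55 and PRKDC at -0.21, while ZNF451, a SUMO ligase that aids TDP2, was at -0.082 and RAD50 at -0.11, neither passing the test. With library totals PRKDC lost its call (-0.046), and ZNF451 and RAD50 turned to 0.084 and 0.056 without passing.

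The partners of TOP3A split. RMI1 had 39.1 and 41.2 CPM untreated and 25.1 and 28.2 CPM with DOX (log2 fold change -0.76), and BLM had 49.2 and 53.2 against 33.1 and 36.9 (-0.72). TDRD3, a partner of TOP3B, was at -0.28, a call lost with library totals (-0.11, adjusted p = 0.259). RMI2 was the only one of the 4 that rose, from 9.12 and 8.33 to 12.3 and 13.0 CPM (0.36, SE 0.085, edgeR adjusted p = 0.00623); it is named here after its value was seen.

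Of 10 genes that attach SUMO or ubiquitin to trapped topoisomerases, 9 fell and none rose (median -0.46). They included the SUMO-activating subunits UBA2 (log2 fold change -0.61) and SAE1 (-0.52) and the modifier gene SUMO3 (-0.58), while the ubiquitin ligase RNF4 was at -0.17 and did not pass. All 8 condensin genes, whose products compact chromosomes beside TOP2A, fell (median -0.80), led by NCAPH (-0.93), SMC4 (-0.88) and SMC2 (-0.81). Of 14 genes for regulators of cell cycle promoters, namely the NF-Y subunits, members and partners of the DREAM and MMB complexes and the GC-box factors SP1 and SP3, 11 fell (median -0.54). MYBL2 (-0.91) and FOXM1 (-0.82), activators of mitotic genes, and E2F4 (-0.76) of the DREAM complex had the smallest p. Among the NF-Y subunits, NFYB was at -0.52 and NFYC at -0.33, and NFYA at -0.15 did not pass. With library totals 7 of the 10 SUMO and ubiquitin genes, all 8 condensin genes and 9 of the 14 promoter regulators fell and none rose, NFYC lost its call (-0.16) and NFYA turned to 0.012.

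All 41 S phase and all 52 G2/M genes used for the classes fell, with medians of -0.79 and -0.82. They were led by MCM2, CLSPN and E2F8 (-0.84, -0.88 and -0.93) and by BUB1, AURKA and TACC3 (-1.03, -1.02 and -1.01). With library totals all 41 S phase genes and 51 of the 52 G2/M genes fell, the exception being CBX5 (-0.13). The value of TOP2A, -0.89, lay within the range of these genes. The list counts stand against 26.4% of genes called lower in the same fit, and those with library totals against 15.1%. BLM is also in the S phase list, and the condensin genes SMC4 and NCAPD2 are also in the G2/M list. The lists are therefore not separate. In these sums over all deep barcodes, fewer cells of a type and less RNA per cell cannot be told apart. The classes given above were set by the S phase and G2/M lists, so neither their shares nor the TOP2A levels within them are independent of those genes.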

How the data were processed

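Raw UMI counts of 4 scRNA-Seq libraries were used as deposited by the authors, who aligned reads to hg19 with Cell Ranger (7.2.0 per the file headers, 7.0.0 per the submitters' processing notes) and forced 8000 barcodes per DOX library. Whether intronic reads were counted is not given in the sources used here. Total counts per library ranged from 159897846 to 317489299 UMIs. The 6 genes and all gene lists were chosen with earlier results of these data known.

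Deep barcodes were summed per library and tested with edgeR 4.0.16 (quasi-likelihood F test, TMM, filterByExpr, Benjamini-Hochberg over all genes tested, threshold 0.05), group as the only term. The interaction used library, class and DOX by class. Scripts were tested on simulated data. DESeq2 1.42.0 was an alternative, with other scalings, filters, barcode limits, class limits and each library left out. No doublet caller was run, and the 5% of barcodes with most UMIs were left out as an alternative. Named genes were, for each list, the 3 with the smallest p, and, over barcodes, the 10 with the highest mean Pearson r for TOP2A and the 3 highest for genes reaching 0.3 (minimum mean 0.1 UMI per barcode in every library); others named from a list are given as examples chosen after their values were seen. Sites were searched on both strands in RefSeq windows (GRCh38.p14). Gene positions come from the GRCh37 annotation. Intervals cover counting error only.

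Libraries were not treated as paired by replicate number, since the labels name no shared culture or day. The replicate 1 libraries had a correlation of 0.0066 between their deviations from the group means. This single value over 21563 genes cannot settle whether they were paired.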

Additional observations from a re-analysis of the deposited data

Results flagged for a closer look

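For 5 of the 6 genes the effect of DOX differed between the G2/M class and the low class by edgeR's interaction test, each with less of a fall, or none, in G2/M. Of 18845 genes tested, 30.2% had such a difference called, 21.6% in this direction. The difference (log2 fold change in G2/M minus low) was 1.499 for TOP2A, which stood at 281 and 292 CPM in the DOX G2/M barcodes and at 44.4 and 41.6 CPM in the DOX low barcodes. It was 0.53 for TOP3A, 0.34 for TOP1, 0.33 for TDP1 and 0.26 for TOP2B. For TDP2 it was 0.075 and did not pass. Under 17 alternatives the TOP2B call was lost in 7, and the TDP1 call held in 8.

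The median S and G2/M z-scores of the low class moved with these differences, at -4.50 and -3.92 in DOX library 1 against -0.43 and -0.54 in untreated library 1. With the class limit of -2, added after the data were seen, the differences were 0.15 for TOP2A (edgeR adjusted p = 0.825), -0.042 for TOP3A (0.941), -0.63 for TDP1 (0.0970), 0.36 for TOP2B (0.220) and 0.48 for TOP1 (0.0393), so that of the 5 only TOP1 still passed. That limit left 62 and 34 barcodes in the untreated low class.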

How the results depend on the processing

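TOP2A, TOP3A, TDP1 and TDP2 kept their direction and call over deep barcodes under all 16 alternatives. With library totals TOP2B turned to 0.014 and TOP1 lost its call at -0.13, and the genes called changed from 6077 higher and 5695 lower to 8472 and 3259. TOP2B also lost its call at a minimum of 40000 UMIs (-0.14), with upper limits of 12000 genes and 150000 UMIs (-0.14), without the 5% of barcodes with most UMIs (-0.14) and after thinning (-0.085). Leaving out 1 library gave -0.18 to -0.14 for TOP2B and -0.33 to -0.29 for TOP1, and calls were lost without either DOX library. An arm left with 1 library was assumed to vary like the other. In the S class TOP2A was -0.26 at a mitochondrial limit of 5%, and -0.40 to -0.21 with 1 library left out. In G2/M it was 0.032 with library totals, 0.047 at the limit of 5%, and -0.10 to 0.032 with 1 library left out, without passing. At the class limit of -2 TOP2A gave -0.23 (low) and 0.15 (difference between classes). The cause of these changes was not tested.

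Among values that had passed no test, TOP2B in G2/M was -0.0024 with median-of-ratios factors, -0.0025 with DESeq2, -0.026 without a filter, -0.0026 at a mitochondrial limit of 15%, -0.0014 with upper limits, -0.038 and -0.020 at class limits of 0.5 and -2, and -0.039 to 0.050 with 1 library left out. TOP2B in S was -0.0066 at 15%, -0.019 at -2 and -0.046 to 0.13 with 1 library left out, and TOP3A in S was -0.038 at -2 and -0.026 to 0.13 with 1 left out. TOP1 in G2/M was 0.023 with library totals and 0.0055 thinned. TDP1 in S was 0.051 with library totals, 0.019 with upper limits, 0.012 without the 5%, 0.020 at 0.5 and -0.099 to 0.030 with 1 library left out. For TDP2 the difference between classes was -0.066 with library totals, -0.0049 without a filter, -0.098 thinned and -0.065 to 0.17 with 1 library left out. Values that had been called also turned. TDP1 was 0.038 and 0.48 in the low class and -0.12 and -0.63 for the difference between classes at limits of -0.5 and -2, and TOP3A was -0.042 for that difference at -2.

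The TOP2A share of TOP2 UMIs differed by -11.7 points at 15% and -8.20 with upper limits. The share of barcodes without TOP2A differed by 27.3 points at 15%, 27.7 at 5% and 29.6 thinned, and the median by -2 UMIs thinned. The replicate block gave 6370 genes higher and 5941 lower and -0.89 for TOP2A; it ended the TOP2B call in the low class (-0.22, adjusted p = 0.0501) and no other call of the 6 genes.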

Other observations

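Barcodes that failed the mitochondrial limit showed the same genes from another side. Among barcodes with at least 20000 UMIs and a mitochondrial share of 8% or more, TOP2A stood at 77.2 and 78.9 CPM in DOX libraries and at 176 and 206 CPM in untreated libraries, and TOP2B at 53.8 and 50.0 CPM against 45.5 and 47.5 CPM. These barcodes numbered 579 and 651 with DOX and 395 and 173 untreated, and no test was run on them.

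TDP2 had an unusual set of neighbours over cells, chosen for description after the values were seen. Of its 10 genes with the highest mean r, 9 lay on its own chromosome 6, which holds 4.89% of the 13035 genes ranked. For TOP2B 4 of 10 lay on chromosome 3, for TDP1 3 of 10 on chromosome 14, and for TOP2A, TOP1 and TOP3A none lay on the same chromosome. The nearest gene was KIAA0319, which lies next to TDP2 at 24544332-24646419 of hg19 chromosome 6, with r of 0.013 and 0.054 in untreated libraries and 0.15 and 0.32 in DOX libraries.

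In the DOX libraries 5 deep barcodes held 10 or more TDP2 UMIs, 1 in DOX library 1 with 17 and 4 in DOX library 2 with 61, 30, 10 and 10, and these held 0, 0, 0, 0 and 1 TOP2A UMIs. Pooled over them KIAA0319 was at 551 CPM against 4.59 CPM in the other deep DOX barcodes. Its counts in the same order were 46, 256, 58, 0 and 11 UMIs, so 1 barcode held 256 of the 371. The values of the next genes were pooled in the same way and do not describe each barcode. DCDC2 was at 186 against 0.433 CPM, GPLD1 at 178 against 2.89, SCGN at 29.7 against 0.156 and LRRC16A at 423 against 81.6, genes that lie on both strands between 24171983 and 25702011. GMNN in the same stretch was at 19.3 against 64.9 CPM. In the untreated libraries 4 and 6 barcodes held 10 or more TDP2 UMIs, with KIAA0319 at 11.1 and 3.604 CPM in them. Without the 5 DOX barcodes the r of KIAA0319 with TDP2 was 0.088 in DOX library 1 and 0.032 in DOX library 2, and the TDP2 level was 19.7 and 19.5 CPM in the DOX libraries.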
